A study of Arabidopsis thaliana with 6 samples.

Results

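Seedlings of the Arabidopsis thaliana mutant apc8-1 were set against the Col-0 wild type across the whole transcriptome. The comparison used 4 of the 6 RNA libraries of the study, 2 of apc8-1 and 2 of Col-0. The third genotype, nrpe1-12, was kept beside it with its 2 libraries. All plants were 14-day-old seedlings from MS medium, a standard plant growth medium, kept under 16 h of light and 8 h of dark at 22 °C. None of the 3 genotypes had received a treatment. Total RNA was freed of ribosomal RNA before library preparation, so RNAs without a poly(A) tail, including those of the chloroplast, were also read. The apc8-1 plants carry a mutant allele of APC8, and the nrpe1-12 plants carry a mutant allele of NRPE1, which encodes the largest subunit of RNA polymerase V, an enzyme of RNA-directed DNA methylation. The sources used here do not give the kind of lesion in apc8-1, the number of plants per library or whether duplicates came from separate cultures. The p-values therefore measure only the spread between these samples, which may be technical. The loci were those with at least 1 FPKM in at least 2 of the 4 apc8-1 and Col-0 libraries. FPKM is the authors' unit, fragments relative to the length of the transcript and to the size of the library. This filter kept 17484 of the 32594 loci in the table, or 53.6%.

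APC8 belongs to the APC/C, or anaphase promoting complex, a ubiquitin ligase built of many subunits. The complex marks mitotic cyclins and other proteins for destruction by the proteasome, and it is best known for driving cells out of mitosis and plant cells into endoreduplication. Its activators, the CDC20 and CCS52 proteins, bring the substrates to it. In Arabidopsis, weak alleles of its subunits are known for dwarfed growth and altered hormone responses. The title of the study also ties the complex to RNA-directed DNA methylation, in which nrpe1-12 is defective.

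Between 16828 and 17301 loci reached 1 FPKM in each library. The steps between low values gave the number of fragments per kb that 1 FPKM was worth. This was 15.96 and 16.4 in apc8-1, 16.7 and 14.0 in nrpe1-12 and 19.2 and 14.4 in Col-0. The kb were counted after a fragment length of 220 or 230 bases was taken off the transcript, so a 1 kb transcript has fewer. Depth was thus similar, and values under 1 FPKM rest on few fragments. Chloroplast transcripts other than rbcL made up 28.4 and 30.2% of the summed FPKM in apc8-1, 28.6 and 29.0% in nrpe1-12 and 24.1 and 24.4% in Col-0. The chloroplast gene rbcL itself was listed at 45405 FPKM in Col-0 replicate 2 and at 0 in the other 5 libraries, and it took no part in any result. Over the tested loci, log2(FPKM + 1) correlated at r = 0.990 to 0.991 between duplicates, at 0.970 to 0.972 between apc8-1 and nrpe1-12 libraries and at 0.953 to 0.954 between apc8-1 and Col-0 libraries. These correlations describe loci, which are not independent. Markers of both roots and shoots were present in all libraries, while seed and embryo markers summed to at most 3.21 FPKM and flower markers to at most 6.75 FPKM in any library.

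In apc8-1, 2540 loci were higher and 2901 loci were lower than in Col-0 (limma on log2(FPKM + 1), Benjamini-Hochberg adjusted p below 0.05), which is 31.1% of the loci tested, 14.5% higher and 16.6% lower. Most of these differences were small: the median size among called loci was 0.54 on the log2 scale, and the median change over all tested loci was 0.01. The large changes lay mostly on the lower side. At least 2-fold lower on the log2(FPKM + 1) scale were 733 called loci (4.19% of those tested), against 155 that were at least 2-fold higher (0.887%), and at least 4-fold lower were 127 loci, against 18 at least 4-fold higher. Because 1 is added before the logarithm, these folds understate the change of low loci. The direction also went with expression level. Among the loci in the highest quartile of mean level (above 20.03 FPKM), 30.2% were higher and 19.97% lower in apc8-1, while in the lowest quartile (up to 3.55 FPKM) 5.56% were higher and 17.0% lower. In both quartiles, more loci were at least 2-fold lower than at least 2-fold higher, with 112 against 50 in the highest and 309 against 43 in the lowest. Many low loci passed the filter through the genotype in which they were high. In the lowest quartile, 151 loci reached 1 FPKM in both apc8-1 libraries and in neither Col-0 library, of which 77 were called higher, and 493 did so in Col-0 alone, of which 406 were called lower. The shares of that quartile are therefore a description of the loci that passed. Without the organelle and ribosomal RNA loci, and with the libraries rescaled to equal sums of the rest, 1752 loci were called higher and 3701 lower. The higher loci thus made up 32.1% of the calls there and 46.7% in the values as deposited. The 5 nuclear chromosomes were alike, with 14.2 to 14.6% of their tested loci higher and 15.4 to 18.8% lower. With 2 libraries a side, the smallest p of an exact permutation test is 0.333, and the limma calls use a spread shared among loci and among the 3 genotypes. In whole seedlings, fewer cells of a type and less RNA per cell cannot be told apart.

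**Figure D1:**
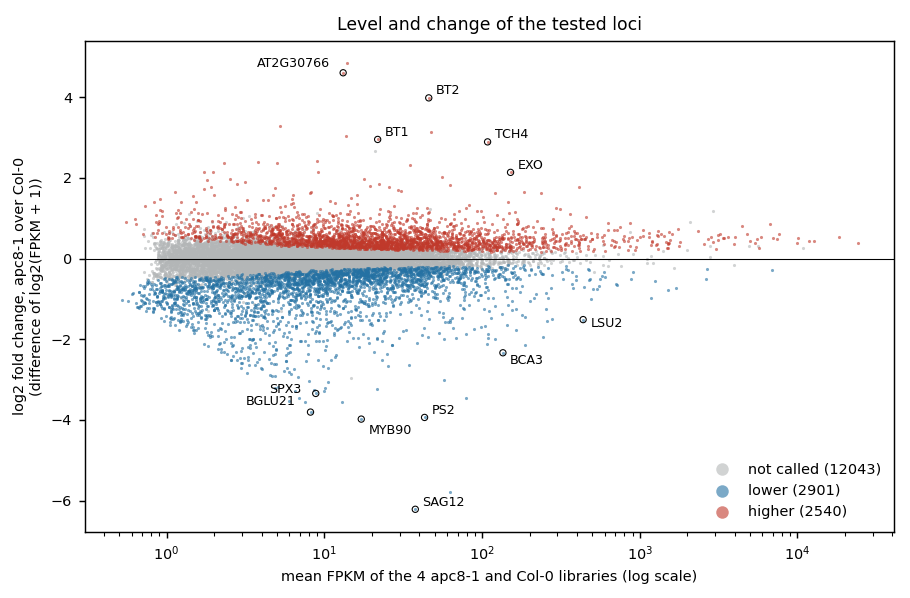
Each point is 1 of the 17484 tested loci, with the mean FPKM of the 4 apc8-1 and Col-0 libraries on a log axis and the log2 fold change of apc8-1 over Col-0 on the vertical axis. The 2540 higher loci crowd at small changes and high levels, and the 2901 lower loci reach further from 0, down to SAG12 at -6.21.

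RNA of the targeted gene did not pass the test for a difference. APC8 (AT3G48150, chromosome 3, 17779653 to 17782645 on TAIR10) had 1.80 and 1.93 FPKM in apc8-1, 1.51 and 1.48 FPKM in nrpe1-12 and 1.29 and 1.64 FPKM in Col-0. The apc8-1 libraries were the highest of the 6 by a small margin and did not overlap with Col-0. Such separation was common. Over all tested loci, 33.4% were higher in apc8-1 without overlap with Col-0, and 32.6% were lower without overlap. The difference in APC8 was not called (log2 fold change 0.22, SE 0.15, adjusted p = 0.299). Since the kind of lesion is not stated, this level is no check of the genotype label. Of 52 annotated or assembled loci within 100 kb of APC8, 32 were tested, 4 were higher and 2 were lower in apc8-1, or 18.8% called against 31.1% of all tested loci, with a median change of -0.04. EDD1, which encodes a glycine-tRNA ligase, had 6.90 and 6.04 FPKM in apc8-1, 6.10 and 5.72 FPKM in nrpe1-12 and 3.64 and 4.16 FPKM in Col-0. EDD1 rose by 0.61 in log2 terms (SE 0.12, adjusted p = 0.00569). The unnamed locus AT3G48200 had 17.4 and 17.5 FPKM in apc8-1, 18.4 and 18.8 FPKM in nrpe1-12 and 12.5 and 12.1 FPKM in Col-0. AT3G48200 rose by 0.47 log2 units (SE 0.08, adjusted p = 0.00213). In both, apc8-1 and nrpe1-12 were alike and above Col-0. ROP10, a small GTPase, had 32.0 and 39.6 FPKM in apc8-1, against 26.7 and 22.6 FPKM in Col-0, with log2 fold change 0.52, SE 0.16, adjusted p = 0.0402. SIS3, a ubiquitin ligase of sugar responses, had 12.3 and 12.4 FPKM in apc8-1, against 9.89 and 8.94 FPKM in Col-0, with log2 fold change 0.36, SE 0.11, adjusted p = 0.0359. These were the weakest of the 6 calls: both were lost without apc8-1 replicate 2, without Col-0 replicate 1 and without Col-0 replicate 2, and SIS3 also without apc8-1 replicate 1. Over the settings that lost them, adjusted p lay between 0.0619 and 0.200 for ROP10 and between 0.0546 and 0.184 for SIS3. GTR1, a glucosinolate transporter, had 17.1 and 17.6 FPKM in apc8-1, 25.3 and 26.3 FPKM in nrpe1-12 and 24.98 and 24.0 FPKM in Col-0. GTR1 fell by 0.47 in log2 terms (SE 0.07, adjusted p = 0.00154), and apc8-1 was the lowest of the 3 genotypes. The unnamed locus AT3G48020 had 0.997 and 1.08 FPKM in apc8-1, 2.48 and 2.44 FPKM in nrpe1-12 and 4.69 and 2.55 FPKM in Col-0. AT3G48020 fell by 1.14 log2 units (SE 0.21, adjusted p = 0.00442), and nrpe1-12 lay between apc8-1 and Col-0. The nearby genes DEL1, an E2F-like regulator of endoreduplication, and ATM, the kinase of the DNA damage response, were not called. DEL1 had 1.54 and 1.34 FPKM in apc8-1, against 0.977 and 0.898 FPKM in Col-0, and ATM had 4.04 and 4.22 FPKM in apc8-1, against 3.01 and 3.30 FPKM in Col-0. In the 1 Mb window that holds APC8, 32.5% of 157 tested loci were called. This share ranked 40 among 104 windows with at least 50 tested loci, whose shares ran between 16.4 and 48.7% around a median of 31.0%.

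**Figure D2:**
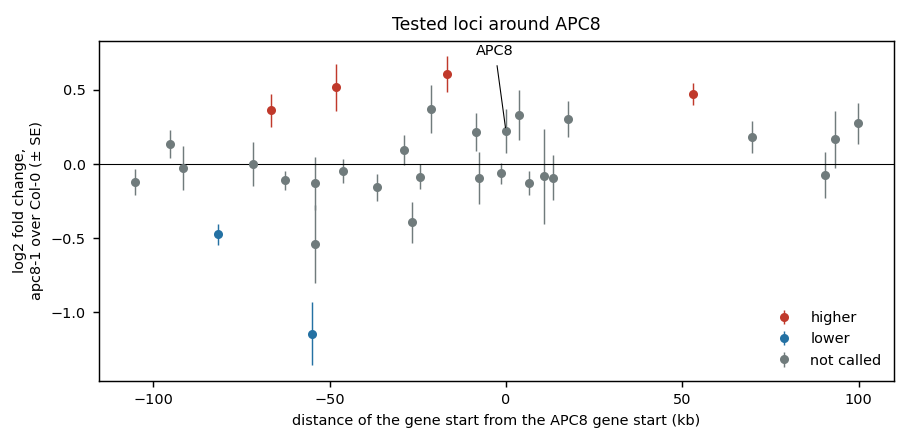
Log2 fold change of apc8-1 over Col-0 (vertical axis, bars are the SE of the fit) for the 32 tested loci within 100 kb of APC8, placed by the distance of their start from the APC8 start in kb. The 4 higher and 2 lower loci are scattered among loci that were not called, and APC8 lies at 0.22.

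Few genes of the APC/C were called, and A- and B-type cyclins were higher or not called. Of 17 tested APC/C subunits and activators, 3 were higher, 1 was lower and 13 were not called, with a median of 0.16. The higher share of 17.6% was close to the 14.5% among all tested loci. The called increases were all in activators. CDC20.1, the mitotic activator, had 12.5 and 13.5 FPKM in apc8-1, 5.45 and 5.24 FPKM in nrpe1-12 and 5.65 and 5.63 FPKM in Col-0. CDC20.1 rose by 1.07 in log2 terms (SE 0.10, adjusted p = 0.000123). FZR3, also known as CCS52B, the activator expressed around mitosis, had 11.5 and 14.4 FPKM in apc8-1, 5.95 and 5.50 FPKM in nrpe1-12 and 6.59 and 6.03 FPKM in Col-0. FZR3 rose by 0.92 log2 units (SE 0.12, adjusted p = 0.000897). In both genes the apc8-1 libraries stood above all 4 others. The difference from nrpe1-12 was also called, with adjusted p = 0.000182 for CDC20.1 and 0.000913 for FZR3. Fragments of CDC20.1 and its neighbour CDC20.2 may be split uncertainly because the genes are near-identical. CDC20.2 was called higher too, with log2 fold change 0.80, SE 0.19, adjusted p = 0.0137, but not without apc8-1 replicate 2 or without Col-0 replicate 1 (adjusted p 0.0515 to 0.0884 over the settings that lost the call). Among the core subunits, APC10 had 19.8 and 20.14 FPKM in apc8-1, against 19.7 and 19.8 FPKM in Col-0. HBT, a CDC27 subunit, had 7.55 and 7.55 FPKM in apc8-1, against 6.17 and 6.24 FPKM in Col-0. Neither was called. The lower call was BNS, the small subunit also called APC13, at 0.896 and 0.911 FPKM in apc8-1, against 1.78 and 2.07 FPKM in Col-0, with log2 fold change -0.62, SE 0.15, adjusted p = 0.0159. This call, near 1 FPKM, was lost without apc8-1 replicate 1, without apc8-1 replicate 2 and without Col-0 replicate 2 (adjusted p 0.0516 to 0.0977 over the settings that lost it).

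Among 14 tested A- and B-type cyclins, the partners of cyclin-dependent kinases in S phase and mitosis, 6 were higher (42.9%, against 14.5% of all tested loci), none was lower and 8 were not called, with a median of 0.43. Against nrpe1-12, 6 were higher and none was lower, beside 7.47% higher and 11.2% lower among all tested loci. CYC1BAT, the locus of cyclin B1;2, had 9.21 and 10.4 FPKM in apc8-1, 5.94 and 5.07 FPKM in nrpe1-12 and 4.70 and 5.69 FPKM in Col-0. CYC1BAT rose by 0.81 in log2 terms (SE 0.13, adjusted p = 0.00210). CYCB2;2 had 6.77 and 6.02 FPKM in apc8-1, 3.07 and 3.37 FPKM in nrpe1-12 and 3.93 and 3.58 FPKM in Col-0. CYCB2;2 rose by 0.64 log2 units (SE 0.12, adjusted p = 0.00495). CYCB2;3 had 5.75 and 6.43 FPKM in apc8-1, 3.27 and 2.77 FPKM in nrpe1-12 and 2.77 and 3.74 FPKM in Col-0. CYCB2;3 rose by 0.74 in log2 terms (SE 0.15, adjusted p = 0.00633). In all 3 the apc8-1 libraries were the highest of the 6 and nrpe1-12 was near Col-0. CYCB1;1, the usual reporter of mitosis, had 3.53 and 3.38 FPKM in apc8-1, 2.72 and 3.13 FPKM in nrpe1-12 and 2.55 and 2.31 FPKM in Col-0 and was not called (adjusted p = 0.0580). Of 8 D-type cyclins, which act at the start of the cycle, 2 were called higher and 6 were not called. Leaving out any 1 of the 4 libraries gave 1 called higher, because CYCD1;1 was lost (adjusted p 0.0627 to 0.146 over the settings that lost it). CYCD3;2 had 19.4 and 19.2 FPKM in apc8-1, against 10.7 and 11.6 FPKM in Col-0. CYCD3;2 rose by 0.74 log2 units (SE 0.09, adjusted p = 0.000427). Of 15 inhibitors of cyclin-dependent kinases and endoreduplication regulators, 3 were called lower and 1 higher. These shares were 20% and 6.67%, beside 16.6% lower and 14.5% higher among all tested loci. None was called lower without apc8-1 replicate 1 or without Col-0 replicate 1, and 1 was without Col-0 replicate 2. The higher call, UVI4-LIKE, was lost without any 1 of the 4 libraries (adjusted p 0.0505 to 0.220 over the settings that lost it). Of 18 tested subunits and regulators of the proteasome, 3 were lower, none was higher and 15 were not called, with a median of -0.12. The lower share of 16.7% was near the 16.6% among all tested loci. The count of 3 moved to 6 without apc8-1 replicate 1, to 1 without Col-0 replicate 1 and to 8 with organelle and ribosomal RNA loci left out. NAC053, a transcription factor of proteasome stress, had 4.46 and 4.19 FPKM in apc8-1, against 9.42 and 8.51 FPKM in Col-0. NAC053 fell by 0.90 in log2 terms (SE 0.11, adjusted p = 0.000479). The core subunit PAG1 had 63.5 and 66.6 FPKM in apc8-1, against 68.8 and 68.1 FPKM in Col-0 and was not called. Ribosome biogenesis genes were lower in 5 of 10 tested members (50%, beside 16.6% of all tested loci), none was higher, and the median was -0.40. NUC-L1, the nucleolin gene, had 47.3 and 47.3 FPKM in apc8-1, against 61.1 and 60.5 FPKM in Col-0. NUC-L1 fell by 0.35 log2 units (SE 0.06, adjusted p = 0.00326).

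Beyond the cell cycle, lists of known pathway genes, 43 in all, differed widely. The share of members called ran between none of 12 for the secondary cell wall and all 10 for shoot markers. Among all tested loci 31.1% were called, 14.5% higher and 16.6% lower, and the counts of the lists and families below stand beside these shares. Phosphate starvation, late anthocyanin and sulfur deficiency genes had the lowest medians, at -1.84, -1.25 and -1.16, beside 0.01 for all tested loci. The highest medians among lists of at least 10 tested members were those of carbon starvation (0.57), iron deficiency (0.49) and shoot markers (0.44). The lists were written with earlier results of these data known, so their directions are not independent of those results. Small counts were unstable: of 31 counts of 1 or 2 members called in a direction, 23 moved by over 1.5 times when 1 library was left out, as did 14 of 37 larger counts.

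**Figure D3:**
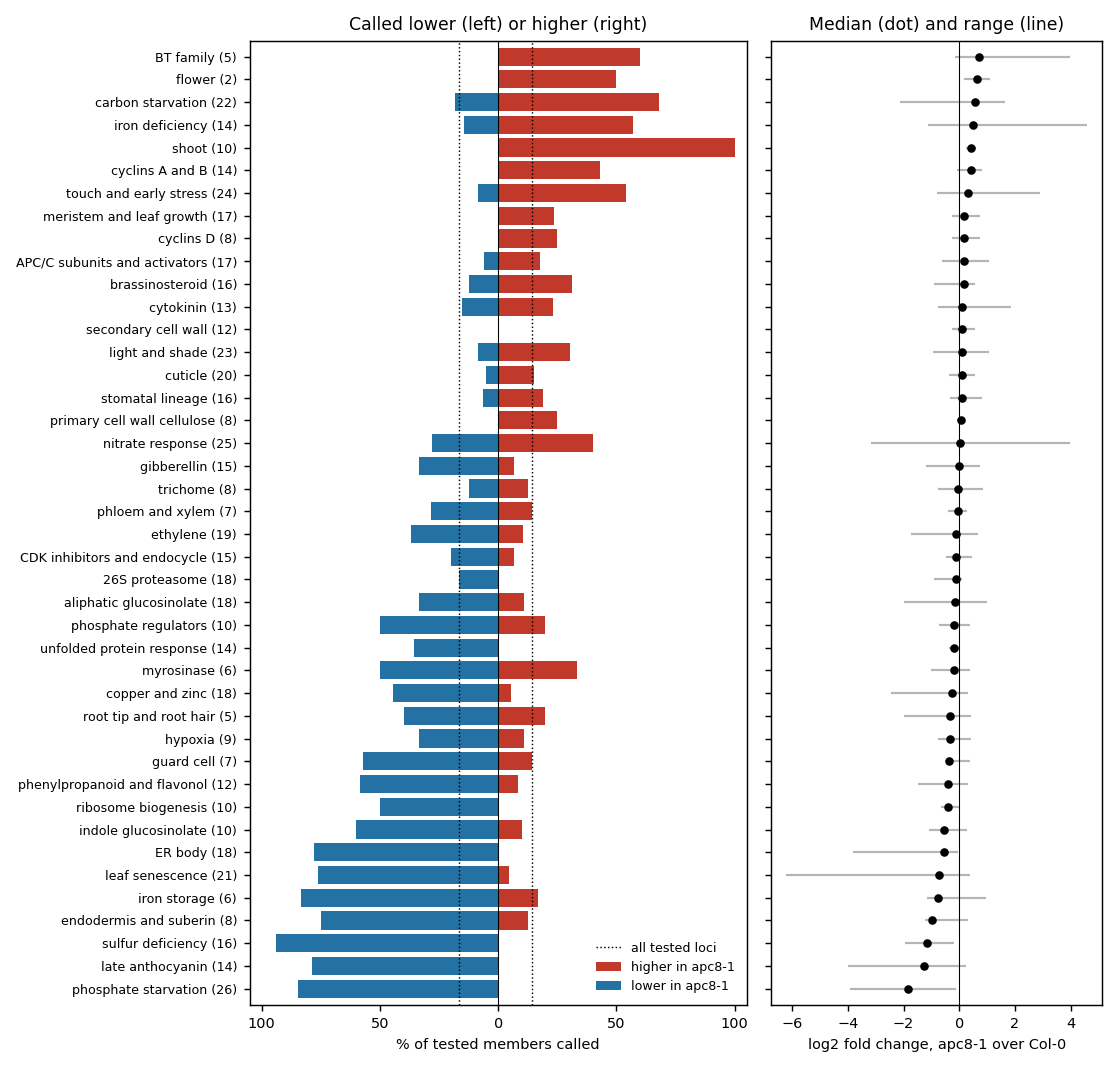
Left, for each list with tested members (their number in brackets), the percentage of members called lower (bars to the left) and higher (bars to the right) in apc8-1 against Col-0, with dotted lines at the shares among all tested loci (16.6% lower and 14.5% higher). Right, the median (dot) and the range (line) of the members' log2 fold changes; the lists run by median, with phosphate starvation at -1.84 at the bottom.

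The largest decreases included genes of senescence, phosphate starvation and defence. SAG12, a cysteine protease of senescing leaves (AT5G45890, chromosome 5, 18613259 to 18614930), had 0.0609 and 0 FPKM in apc8-1, 0.638 and 0.838 FPKM in nrpe1-12 and 75.3 and 75.6 FPKM in Col-0. SAG12 fell by 6.21 in log2 terms (SE 0.12, adjusted p = 8.45e-08). Both mutants were thus under 1 FPKM and far below Col-0. PS2, a phosphatase induced by phosphate starvation (AT1G73010, chromosome 1, 27464572 to 27466256), had 4.36 and 4.47 FPKM in apc8-1, 80.02 and 75.04 FPKM in nrpe1-12 and 81.2 and 82.8 FPKM in Col-0. PS2 fell by 3.94 log2 units (SE 0.07, adjusted p = 7.59e-08). AT5G64120, the peroxidase PRX71, had 12.1 and 12.5 FPKM in apc8-1, 79.5 and 74.8 FPKM in nrpe1-12 and 144 and 147 FPKM in Col-0. AT5G64120 fell by 3.47 in log2 terms (SE 0.06, adjusted p = 7.59e-08). For PS2 apc8-1 alone was low, and for PRX71 nrpe1-12 lay between the other genotypes. CYP71A12, a cytochrome P450 of camalexin and indole metabolism, had 1.11 and 1.21 FPKM in apc8-1, 14.2 and 14.6 FPKM in nrpe1-12 and 19.2 and 19.1 FPKM in Col-0. CYP71A12 fell by 3.22 log2 units (SE 0.09, adjusted p = 7.00e-07). AT2G45220, the pectin methylesterase PME17, had 2.93 and 3.80 FPKM in apc8-1, 37.7 and 33.5 FPKM in nrpe1-12 and 40.4 and 38.9 FPKM in Col-0. AT2G45220 fell by 3.23 in log2 terms (SE 0.11, adjusted p = 1.10e-06). In these 2 the nrpe1-12 libraries were close to Col-0. The difference of apc8-1 from nrpe1-12 was called as well, with adjusted p = 1.63e-06 for CYP71A12 and 2.61e-06 for PME17. RGF7, which encodes a root growth factor peptide, had 0 and 0.743 FPKM in apc8-1, 3.05 and 3.44 FPKM in nrpe1-12 and 12.3 and 17.2 FPKM in Col-0. RGF7 fell by 3.56 log2 units (SE 0.26, adjusted p = 3.72e-05). GPT2, the glucose-6-phosphate translocator of plastids, had 1.40 and 1.504 FPKM in apc8-1, 5.37 and 4.59 FPKM in nrpe1-12 and 19.5 and 19.5 FPKM in Col-0. GPT2 fell by 3.07 in log2 terms (SE 0.11, adjusted p = 1.51e-06). DXPS1, annotated as a deoxyxylulose phosphate synthase, had 0.908 and 0.977 FPKM in apc8-1, 8.49 and 8.19 FPKM in nrpe1-12 and 13.5 and 16.3 FPKM in Col-0. DXPS1 fell by 3.03 log2 units (SE 0.12, adjusted p = 2.01e-06). RHS19, a root hair peroxidase, had 0.189 and 0.124 FPKM in apc8-1, 1.26 and 1.01 FPKM in nrpe1-12 and 9.16 and 10.05 FPKM in Col-0. RHS19 fell by 3.20 in log2 terms (SE 0.14, adjusted p = 3.41e-06). In all 4 the order was apc8-1 below nrpe1-12 below Col-0, with no overlap between genotypes.

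Several of the largest increases were in loci with little annotation. The locus assembled antisense to AT1G13609 had 26.5 and 29.0 FPKM in apc8-1 and 7.42 and 5.58 FPKM in nrpe1-12, while each Col-0 library listed it at 0 (adjusted p = 7.00e-07). The strand used for counting is not stated, so fragments of the gene and of its antisense locus may be mixed. AT4G29905 had 85.0 and 88.0 FPKM in apc8-1, 64.5 and 76.3 FPKM in nrpe1-12 and 9.28 and 8.54 FPKM in Col-0, so both mutants were high. AT4G29905 rose by 3.14 log2 units (SE 0.09, adjusted p = 7.00e-07). AT4G36850 had 26.2 and 24.1 FPKM in apc8-1, 13.4 and 11.8 FPKM in nrpe1-12 and 2.097 and 2.31 FPKM in Col-0, with nrpe1-12 between the other genotypes. AT4G36850 rose by 3.03 in log2 terms (SE 0.10, adjusted p = 1.10e-06). DREB26, an AP2-type transcription factor, had 58.6 and 59.2 FPKM in apc8-1, 46.0 and 43.6 FPKM in nrpe1-12 and 10.2 and 11.8 FPKM in Col-0. DREB26 rose by 2.32 log2 units (SE 0.08, adjusted p = 1.12e-06). JAZ7, a jasmonate repressor, had 8.28 and 9.87 FPKM in apc8-1, 5.93 and 5.75 FPKM in nrpe1-12 and 0.929 and 0.935 FPKM in Col-0. JAZ7 rose by 2.38 in log2 terms (SE 0.12, adjusted p = 7.88e-06). MYB77, a regulator of auxin-responsive genes, had 16.1 and 14.8 FPKM in apc8-1, 18.6 and 21.3 FPKM in nrpe1-12 and 3.44 and 2.14 FPKM in Col-0. MYB77 rose by 2.14 log2 units (SE 0.16, adjusted p = 4.34e-05). In all 3 transcription regulators both mutants were above Col-0 with no overlap. For MYB77 the difference between the mutants did not pass the test (adjusted p = 0.182). AT1G72430, the small auxin-up RNA gene SAUR78, had 99.0 and 97.99 FPKM in apc8-1, 96.8 and 109 FPKM in nrpe1-12 and 27.4 and 26.4 FPKM in Col-0. AT1G72430 rose by 1.83 in log2 terms (SE 0.07, adjusted p = 1.78e-06), and again the mutants lay together above Col-0. AT1G79170 was also among the largest increases, with 5.33 and 8.63 FPKM in apc8-1, against 1.18 and 0 FPKM in Col-0. Its call was lost in 8 of 14 alternative settings, among them the removal of any 1 of the 4 libraries (adjusted p 0.0535 to 0.191).

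Among abundant nuclear genes (at least 200 FPKM in the higher group), the unnamed locus AT2G20670 had 597 and 672 FPKM in apc8-1, 635 and 663 FPKM in nrpe1-12 and 195 and 172 FPKM in Col-0. AT2G20670 rose by 1.79 log2 units (SE 0.08, adjusted p = 3.81e-06). BGAL1, a beta-galactosidase of the cell wall, had 277 and 287 FPKM in apc8-1, 255 and 266 FPKM in nrpe1-12 and 90.9 and 86.5 FPKM in Col-0. BGAL1 rose by 1.66 in log2 terms (SE 0.06, adjusted p = 1.12e-06). BXL1, a beta-xylosidase, had 231 and 213 FPKM in apc8-1, 203 and 188 FPKM in nrpe1-12 and 95.7 and 104 FPKM in Col-0. BXL1 rose by 1.14 log2 units (SE 0.07, adjusted p = 1.83e-05). In these 3 both mutants were well above Col-0 and lay near each other. AT2G33830, annotated as dormancy- and auxin-associated, had 443 and 440.0 FPKM in apc8-1, 132 and 111 FPKM in nrpe1-12 and 183 and 191 FPKM in Col-0. AT2G33830 rose by 1.23 in log2 terms (SE 0.08, adjusted p = 2.27e-05), whereas nrpe1-12 lay below Col-0. FBA5, a fructose-bisphosphate aldolase, had 439 and 394 FPKM in apc8-1, 346 and 309 FPKM in nrpe1-12 and 170.2 and 178 FPKM in Col-0. FBA5 rose by 1.25 log2 units (SE 0.08, adjusted p = 1.77e-05). Among abundant genes that fell, BCA3, a beta carbonic anhydrase, had 40.4 and 48.3 FPKM in apc8-1, 82.8 and 74.8 FPKM in nrpe1-12 and 227 and 227 FPKM in Col-0. BCA3 fell by 2.34 in log2 terms (SE 0.09, adjusted p = 1.78e-06). GSR 1, the cytosolic glutamine synthetase also named GLN1;1, had 74.9 and 63.8 FPKM in apc8-1, 102 and 96.5 FPKM in nrpe1-12 and 309.6 and 305 FPKM in Col-0. GSR 1 fell by 2.14 log2 units (SE 0.08, adjusted p = 1.59e-06). GAMMA-VPE, a vacuolar processing protease, had 149 and 142 FPKM in apc8-1, 248 and 245 FPKM in nrpe1-12 and 412 and 411 FPKM in Col-0. GAMMA-VPE fell by 1.49 in log2 terms (SE 0.05, adjusted p = 1.43e-06). DR4, a protease inhibitor-like gene named for its repression by drought, had 74.6 and 73.6 FPKM in apc8-1, 124 and 134 FPKM in nrpe1-12 and 259 and 252 FPKM in Col-0. DR4 fell by 1.77 log2 units (SE 0.06, adjusted p = 1.10e-06). All 4 followed the order apc8-1, nrpe1-12, Col-0 from low to high.

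Phosphate starvation genes had the lowest median of the lists. Plants short of phosphate use the transcription factor PHR1 to raise phosphate transporters, secreted phosphatases, SPX proteins that sense phosphate status, and noncoding RNAs that capture a microRNA. They also raise enzymes that replace phospholipids by galactolipids and sulfolipids. Of 33 listed genes 26 were tested. Of these, 22 were lower in apc8-1 than in Col-0, none was higher and 4 were not called, with a median of -1.84. Against nrpe1-12, 23 were lower and none was higher, with a median of -1.36. Both comparisons use the same apc8-1 libraries. Members with almost no RNA in Col-0 could not show a decrease. Another 7 listed genes did not pass the filter on low values. SPX3, IPS1 and NPC4 passed that filter only through Col-0, with both apc8-1 libraries under 1 FPKM. At a filter of 5 FPKM, 18 genes were called lower and none higher, with a median of -1.96. Some members, such as SPX3, passed that stricter filter only through Col-0 as well.

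Among the sensors, SPX3 had 0.814 and 0.713 FPKM in apc8-1, 13.4 and 11.03 FPKM in nrpe1-12 and 16.7 and 17.0 FPKM in Col-0. SPX3 fell by 3.34 in log2 terms (SE 0.12, adjusted p = 1.19e-06). SPX1 had 15.5 and 18.9 FPKM in apc8-1, 57.5 and 68.0 FPKM in nrpe1-12 and 67.1 and 64.9 FPKM in Col-0. SPX1 fell by 1.88 log2 units (SE 0.11, adjusted p = 1.16e-05). For both, apc8-1 was far below nrpe1-12 and Col-0, which lay close together. SPX2, of the same family, had 7.81 and 9.82 FPKM in apc8-1, against 10.6 and 12.2 FPKM in Col-0 and was not called. Among transporters, PHT1;1, a main phosphate uptake carrier, had 1.61 and 1.57 FPKM in apc8-1, 9.42 and 9.79 FPKM in nrpe1-12 and 10.5 and 10.3 FPKM in Col-0. PHT1;1 fell by 2.13 in log2 terms (SE 0.10, adjusted p = 4.73e-06). PHT1;4 had 1.83 and 1.94 FPKM in apc8-1, 7.69 and 6.97 FPKM in nrpe1-12 and 10.1 and 10.8 FPKM in Col-0. PHT1;4 fell by 1.99 log2 units (SE 0.11, adjusted p = 9.92e-06). G3Pp1, a glycerol-3-phosphate permease, had 6.49 and 7.69 FPKM in apc8-1, 24.6 and 24.5 FPKM in nrpe1-12 and 28.5 and 28.1 FPKM in Col-0. G3Pp1 fell by 1.86 in log2 terms (SE 0.09, adjusted p = 5.05e-06). All 3 transporters fell well below both other genotypes. The noncoding RNA AT4 had 14.1 and 13.8 FPKM in apc8-1, 64.4 and 68.0 FPKM in nrpe1-12 and 63.0 and 63.0 FPKM in Col-0. AT4 fell by 2.1 log2 units (SE 0.06, adjusted p = 7.00e-07). Its relative IPS1 had 0.196 and 0.197 FPKM in apc8-1, 4.51 and 2.06 FPKM in nrpe1-12 and 5.64 and 5.59 FPKM in Col-0. IPS1 fell by 2.47 in log2 terms (SE 0.25, adjusted p = 0.000204), so both noncoding RNAs fell with the coding genes. Among phosphatases, PEPC1, which acts on phosphoethanolamine and phosphocholine, had 1.01 and 1.06 FPKM in apc8-1, 15.3 and 15.0 FPKM in nrpe1-12 and 18.4 and 19.1 FPKM in Col-0. PEPC1 fell by 3.28 log2 units (SE 0.09, adjusted p = 7.00e-07). The purple acid phosphatase PAP17 had 7.77 and 6.59 FPKM in apc8-1, 18.0 and 18.3 FPKM in nrpe1-12 and 30.7 and 30.8 FPKM in Col-0. PAP17 fell by 1.96 in log2 terms (SE 0.09, adjusted p = 3.81e-06). The acid phosphatase PAP10 had 27.8 and 31.7 FPKM in apc8-1, against 33.4 and 34.3 FPKM in Col-0 and was not called. Among the lipid genes, MGDC, the galactolipid synthase MGD3, had 1.98 and 1.76 FPKM in apc8-1, 11.3 and 10.9 FPKM in nrpe1-12 and 14.6 and 13.1 FPKM in Col-0. MGDC fell by 2.37 log2 units (SE 0.11, adjusted p = 3.40e-06). NPC4, a phospholipase C, had 0.379 and 0.296 FPKM in apc8-1, 6.17 and 5.33 FPKM in nrpe1-12 and 6.29 and 6.10 FPKM in Col-0. NPC4 fell by 2.43 in log2 terms (SE 0.13, adjusted p = 8.86e-06). SQD2, the last enzyme of sulfolipid synthesis, had 24.0 and 22.8 FPKM in apc8-1, 64.8 and 61.5 FPKM in nrpe1-12 and 52.4 and 53.3 FPKM in Col-0. SQD2 fell by 1.14 log2 units (SE 0.06, adjusted p = 1.14e-05). SQD2 thus stood at over 20 FPKM in apc8-1, whereas MGDC and NPC4 were under 2 FPKM. SQD1, the enzyme before SQD2, had 35.1 and 30.4 FPKM in apc8-1, against 35.1 and 36.6 FPKM in Col-0 and was not called.

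The regulators upstream of this response had smaller changes. Of 10 tested, 5 were lower and 2 higher, with a median of -0.17. The lower count fell without any 1 of the 4 libraries, and the higher count without any 1 except Col-0 replicate 1. With organelle and ribosomal RNA loci left out, 5 were lower and none was higher. PHO1, which loads phosphate into the xylem, had 10.5 and 11.03 FPKM in apc8-1, 12.1 and 12.6 FPKM in nrpe1-12 and 17.8 and 17.9 FPKM in Col-0. PHO1 fell by 0.68 in log2 terms (SE 0.08, adjusted p = 0.000498). PHF1, which brings PHT1 transporters to the plasma membrane, had 4.14 and 4.86 FPKM in apc8-1, 7.76 and 8.45 FPKM in nrpe1-12 and 8.98 and 7.30 FPKM in Col-0. PHF1 fell by 0.73 log2 units (SE 0.13, adjusted p = 0.00338). PHO2, the ubiquitin-conjugating enzyme that removes transporters, had 19.2 and 19.1 FPKM in apc8-1, 14.5 and 16.4 FPKM in nrpe1-12 and 25.4 and 25.5 FPKM in Col-0. PHO2 fell by 0.39 in log2 terms (SE 0.08, adjusted p = 0.00771), with apc8-1 above nrpe1-12 and below Col-0. PHR1 itself had 28.5 and 26.4 FPKM in apc8-1, 25.3 and 27.0 FPKM in nrpe1-12 and 24.2 and 20.6 FPKM in Col-0. Its call as higher (adjusted p = 0.0484) was lost without apc8-1 replicate 1, without apc8-1 replicate 2 and without Col-0 replicate 2, at adjusted p up to 0.285.

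Sulfur deficiency genes were lower as well. Under sulfate shortage, plants raise sulfate transporters, the APS reductases that reduce sulfate, and a set of small regulators, and they break down glucosinolates as a sulfur store. Of 16 tested genes, 15 were lower in apc8-1 than in Col-0 and 1 was not called, with a median of -1.16. Against nrpe1-12, 13 were lower, with a median of -0.72. The regulators ATSDI1 and LSU1 mark the response. ATSDI1, which represses aliphatic glucosinolate synthesis, had 94.8 and 104 FPKM in apc8-1, 241 and 259.9 FPKM in nrpe1-12 and 405 and 364 FPKM in Col-0. ATSDI1 fell by 1.94 log2 units (SE 0.08, adjusted p = 1.99e-06). LSU1 had 38.3 and 42.3 FPKM in apc8-1, 102 and 97.0 FPKM in nrpe1-12 and 128 and 146 FPKM in Col-0. LSU1 fell by 1.74 in log2 terms (SE 0.08, adjusted p = 4.31e-06). LSU2, the most abundant gene of the list, had 203 and 252 FPKM in apc8-1, 397 and 511 FPKM in nrpe1-12 and 643 and 652 FPKM in Col-0. LSU2 fell by 1.51 log2 units (SE 0.13, adjusted p = 8.94e-05). BGLU28, a beta-glucosidase that acts on glucosinolates, had 33.2 and 33.0 FPKM in apc8-1, 86.7 and 83.4 FPKM in nrpe1-12 and 122 and 127 FPKM in Col-0. BGLU28 fell by 1.88 in log2 terms (SE 0.06, adjusted p = 7.32e-07). AT5G26220, the glutathione-degrading enzyme GGCT2;1, had 28.4 and 28.6 FPKM in apc8-1, 56.7 and 54.8 FPKM in nrpe1-12 and 86.6 and 87.9 FPKM in Col-0. AT5G26220 fell by 1.58 log2 units (SE 0.06, adjusted p = 1.59e-06). In each of these 5, nrpe1-12 lay between apc8-1 and Col-0 and no genotypes overlapped. Among transporters, SULTR1;2, the main root sulfate carrier, had 8.52 and 7.40 FPKM in apc8-1, 14.6 and 14.1 FPKM in nrpe1-12 and 19.1 and 19.0 FPKM in Col-0. SULTR1;2 fell by 1.16 in log2 terms (SE 0.09, adjusted p = 5.81e-05). The deficiency-induced SULTR1;1 had 0.420 and 0.0879 FPKM in apc8-1, 1.69 and 1.68 FPKM in nrpe1-12 and 2.18 and 2.36 FPKM in Col-0. SULTR1;1 fell by 1.40 log2 units (SE 0.17, adjusted p = 0.000612). The reductase genes fell as well. APR1 had 50.3 and 51.3 FPKM in apc8-1, 63.7 and 74.2 FPKM in nrpe1-12 and 114 and 114 FPKM in Col-0. APR1 fell by 1.15 in log2 terms (SE 0.08, adjusted p = 2.62e-05). APR3 had 52.5 and 51.5 FPKM in apc8-1, 57.8 and 67.0 FPKM in nrpe1-12 and 103 and 102 FPKM in Col-0. APR3 fell by 0.96 log2 units (SE 0.08, adjusted p = 5.96e-05). APR2 had 96.9 and 104 FPKM in apc8-1, 118 and 124 FPKM in nrpe1-12 and 136 and 132 FPKM in Col-0. APR2 fell by 0.41 in log2 terms (SE 0.06, adjusted p = 0.00159), the smallest change of the 3. The regulator of the response, EIL3, also called SLIM1, was the member that was not called, with 10.9 and 10.6 FPKM in apc8-1, 11.8 and 13.2 FPKM in nrpe1-12 and 11.6 and 13.1 FPKM in Col-0.

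**Figure D4:**
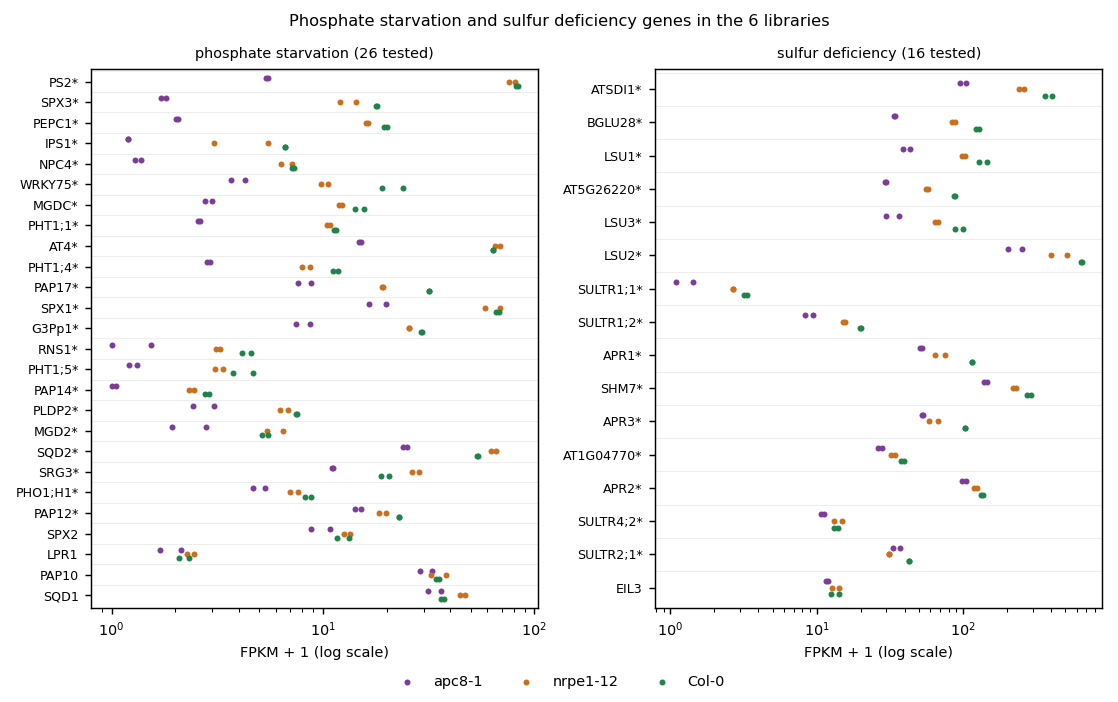
FPKM + 1 on a log axis in each of the 6 libraries for the 26 tested phosphate starvation genes and the 16 tested sulfur deficiency genes, ordered by the change in apc8-1 against Col-0, with an asterisk where that change was called. For most phosphate genes the 2 apc8-1 points stand left of all others, as for PS2 at 4.36 and 4.47 FPKM against 81.2 and 82.8 FPKM in Col-0, and for most sulfur genes the order from left to right is apc8-1, nrpe1-12, Col-0.

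Most iron deficiency genes that changed were higher in apc8-1. Plants short of iron raise small bHLH transcription factors and short mobile peptides, and their roots add a ferric reductase and coumarin synthesis. Cells with ample iron store it in ferritin. Of 14 tested iron deficiency genes, 8 were higher in apc8-1, 2 were lower and 4 were not called, with a median of 0.49. Against nrpe1-12, 6 were higher and 1 was lower. At a stricter filter of 5 FPKM, which leaves out low genes, 5 were called higher and none lower. AT2G30766, AT1G47395, BHLH101 and BHLH100 passed the filter of 1 FPKM only through apc8-1, and FRO2 and AT3G13610 only through Col-0. At 5 FPKM, AT2G30766 and AT1G47395 still passed only through apc8-1. The counts and the median are therefore a description of the genes that passed. The largest changes were in 2 loci for which the annotation gives no gene name. AT2G30766 (chromosome 2, 13108007 to 13108470) had 21.9 and 30.6 FPKM in apc8-1, 6.03 and 4.09 FPKM in nrpe1-12 and 0.220 and 0 FPKM in Col-0. AT2G30766 rose by 4.6 log2 units (SE 0.21, adjusted p = 3.45e-06). AT1G47395 (chromosome 1, 17383034 to 17383408) had 11.4 and 9.21 FPKM in apc8-1, 2.73 and 4.34 FPKM in nrpe1-12 and 0.349 and 0 FPKM in Col-0. AT1G47395 rose by 3.28 in log2 terms (SE 0.22, adjusted p = 2.46e-05). Each was near or at 0 in Col-0, low in nrpe1-12 and highest in apc8-1. The difference from nrpe1-12 was called too, with adjusted p = 0.000320 for AT2G30766 and 0.00426 for AT1G47395. BHLH101 had 3.38 and 3.48 FPKM in apc8-1, 0.838 and 0.724 FPKM in nrpe1-12 and 0.316 and 0 FPKM in Col-0. BHLH101 rose by 1.95 log2 units (SE 0.18, adjusted p = 0.000125). BHLH100 had 2.97 and 2.06 FPKM in apc8-1, 0.473 and 0.286 FPKM in nrpe1-12 and 0.416 and 0.558 FPKM in Col-0. BHLH100 rose by 1.23 in log2 terms (SE 0.19, adjusted p = 0.00160). Both bHLH genes were higher in apc8-1 than in either other genotype at low absolute levels. OPT3, an iron transporter of the phloem, had 23.5 and 19.7 FPKM in apc8-1, 17.7 and 18.4 FPKM in nrpe1-12 and 12.3 and 13.2 FPKM in Col-0. OPT3 rose by 0.71 log2 units (SE 0.10, adjusted p = 0.00101). BTS, a ubiquitin ligase that restrains the response, had 20.8 and 20.08 FPKM in apc8-1, 17.9 and 18.0 FPKM in nrpe1-12 and 12.6 and 12.3 FPKM in Col-0. BTS rose by 0.67 in log2 terms (SE 0.07, adjusted p = 0.000341). FRO3, the mitochondrial ferric reductase, had 31.6 and 28.5 FPKM in apc8-1, 23.0 and 23.7 FPKM in nrpe1-12 and 21.96 and 22.6 FPKM in Col-0. FRO3 rose by 0.41 log2 units (SE 0.08, adjusted p = 0.00423). For OPT3 and BTS nrpe1-12 lay between the other genotypes, whereas for FRO3 it was close to Col-0. The members lower in apc8-1 were FRO2 and AT3G13610. FRO2, the root ferric reductase, had 0.634 and 0.592 FPKM in apc8-1, against 1.32 and 1.72 FPKM in Col-0. FRO2 fell by 0.64 in log2 terms (SE 0.18, adjusted p = 0.0303). AT3G13610, the coumarin synthesis gene F6'H1, had 0.499 and 0.597 FPKM in apc8-1, against 2.08 and 2.71 FPKM in Col-0. AT3G13610 fell by 1.13 log2 units (SE 0.17, adjusted p = 0.00143). The call of FRO2 was lost without any 1 of the 4 libraries (adjusted p 0.0584 to 0.161 over the settings that lost it). PYE, a central regulator of root iron responses, had 8.90 and 8.97 FPKM in apc8-1, against 8.94 and 8.23 FPKM in Col-0 and was not called.

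Iron storage genes went the other way in 5 of 6 tested members, with a median of -0.75, and 3 were called lower without Col-0 replicate 1. FER1, the main leaf ferritin, had 91.6 and 88.9 FPKM in apc8-1, 159.9 and 150.3 FPKM in nrpe1-12 and 199 and 206 FPKM in Col-0. FER1 fell by 1.16 in log2 terms (SE 0.06, adjusted p = 6.41e-06). FER3 had 9.29 and 7.84 FPKM in apc8-1, 8.39 and 6.32 FPKM in nrpe1-12 and 16.1 and 14.5 FPKM in Col-0. FER3 fell by 0.77 log2 units (SE 0.14, adjusted p = 0.00381). FER4 had 27.5 and 28.0 FPKM in apc8-1, 30.6 and 29.0 FPKM in nrpe1-12 and 35.7 and 34.5 FPKM in Col-0. FER4 fell by 0.33 in log2 terms (SE 0.07, adjusted p = 0.00692). For FER1 the order was apc8-1 below nrpe1-12 below Col-0. The member that rose, AT3G25190, had 13.2 and 13.4 FPKM in apc8-1, against 6.17 and 6.30 FPKM in Col-0. AT3G25190 rose by 0.98 log2 units (SE 0.10, adjusted p = 0.000177). Of 18 tested copper and zinc genes, 8 were lower, 1 was higher and 9 were not called, with a median of -0.25. The lower share was 44.4%, beside 16.6% of all tested loci, and the higher share 5.56%, beside 14.5%. FRO5, a copper-responsive reductase gene, had 0.312 and 0.213 FPKM in apc8-1, 3.68 and 2.78 FPKM in nrpe1-12 and 5.85 and 6.04 FPKM in Col-0. FRO5 fell by 2.46 in log2 terms (SE 0.15, adjusted p = 1.71e-05). ZIP2, a zinc transporter gene, had 0.704 and 1.26 FPKM in apc8-1, against 4.66 and 5.10 FPKM in Col-0. ZIP2 fell by 1.58 log2 units (SE 0.21, adjusted p = 0.000774). FSD1, the iron superoxide dismutase that falls when copper is ample, was at 378 and 324 FPKM in apc8-1, against 347 and 352 FPKM in Col-0, and was not called.

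Nitrate-responsive genes split in both directions. Nitrate entering the root activates its own transporters, nitrate and nitrite reductases, and a set of transcriptional regulators, among them LBD37, LBD38 and LBD39 and the BT proteins with BTB and TAZ domains. These are known to hold nitrogen uptake genes down. Of 25 tested, 10 were higher, 7 were lower and 8 were not called, with a median of 0.04 (-0.04 with organelle and ribosomal RNA loci left out). The higher ones included the repressors. BT2 (AT3G48360, chromosome 3, 17908192 to 17910525) had 88.8 and 85.7 FPKM in apc8-1, 47.4 and 49.4 FPKM in nrpe1-12 and 4.99 and 4.21 FPKM in Col-0. BT2 rose by 3.98 in log2 terms (SE 0.08, adjusted p = 1.29e-07), and it was above nrpe1-12 as well (adjusted p = 0.000395). BT1 had 39.8 and 38.8 FPKM in apc8-1, 43.7 and 41.8 FPKM in nrpe1-12 and 3.85 and 4.604 FPKM in Col-0. BT1 rose by 2.95 log2 units (SE 0.09, adjusted p = 7.00e-07), and the difference between the mutants did not pass the test (adjusted p = 0.422). Of the other family members, BT5 had 75.3 and 85.5 FPKM in apc8-1, 190.0 and 204 FPKM in nrpe1-12 and 46.8 and 51.1 FPKM in Col-0, so it was highest in nrpe1-12. BT5 rose by 0.70 in log2 terms (SE 0.08, adjusted p = 0.000403). BT4 had 27.9 and 29.1 FPKM in apc8-1, against 25.2 and 24.96 FPKM in Col-0 and, like BT3, was not called. LBD39 had 29.8 and 28.1 FPKM in apc8-1, 22.5 and 19.2 FPKM in nrpe1-12 and 8.36 and 5.27 FPKM in Col-0. LBD39 rose by 1.97 log2 units (SE 0.17, adjusted p = 9.69e-05). LBD38 had 15.3 and 17.3 FPKM in apc8-1, 8.13 and 8.12 FPKM in nrpe1-12 and 5.27 and 5.67 FPKM in Col-0. LBD38 rose by 1.42 in log2 terms (SE 0.10, adjusted p = 3.27e-05). LBD37 had 118 and 122 FPKM in apc8-1, 130.3 and 123 FPKM in nrpe1-12 and 63.9 and 65.8 FPKM in Col-0. LBD37 rose by 0.87 log2 units (SE 0.06, adjusted p = 2.85e-05). All 3 LBD genes were higher in both mutants than in Col-0, and LBD38 was higher in apc8-1 than in nrpe1-12 (adjusted p = 0.000568). The lower ones were led by uptake genes. NRT2:1, the inducible high-affinity nitrate transporter, had 0.112 and 0.329 FPKM in apc8-1, 3.63 and 5.13 FPKM in nrpe1-12 and 9.61 and 10.3 FPKM in Col-0. NRT2:1 fell by 3.17 in log2 terms (SE 0.17, adjusted p = 8.85e-06). WR3, the partner protein it needs in the membrane, had 13.6 and 9.65 FPKM in apc8-1, 23.3 and 22.8 FPKM in nrpe1-12 and 29.1 and 23.8 FPKM in Col-0. WR3 fell by 1.13 log2 units (SE 0.15, adjusted p = 0.000819). NRT1.1, the dual-affinity transporter and nitrate sensor, had 36.5 and 32.8 FPKM in apc8-1, 40.3 and 39.5 FPKM in nrpe1-12 and 68.3 and 69.4 FPKM in Col-0. NRT1.1 fell by 0.97 in log2 terms (SE 0.07, adjusted p = 3.55e-05). NRT2:1 and WR3 were lowest in apc8-1, and the difference between the mutants in NRT1.1 did not pass the test (adjusted p = 0.0851). Of the reducing enzymes, NIA1, a nitrate reductase, had 37.3 and 39.8 FPKM in apc8-1, 20.19 and 19.0 FPKM in nrpe1-12 and 24.2 and 25.7 FPKM in Col-0. NIA1 rose by 0.61 log2 units (SE 0.08, adjusted p = 0.000594). GS2, the chloroplast glutamine synthetase, had 425 and 404 FPKM in apc8-1, against 319 and 320.5 FPKM in Col-0. GS2 rose by 0.37 in log2 terms (SE 0.06, adjusted p = 0.00159). NIR1, nitrite reductase, had 36.8 and 32.2 FPKM in apc8-1, against 29.6 and 29.4 FPKM in Col-0 and was not called. RFNR2, the ferredoxin reductase of root plastids, had 11.2 and 13.1 FPKM in apc8-1, against 20.5 and 18.9 FPKM in Col-0. RFNR2 fell by 0.66 log2 units (SE 0.10, adjusted p = 0.00185). Of 7 tested amino acid permeases, 4 were lower (57.1%, beside 16.6% of all tested loci) and none was higher. AAP4 had 40.9 and 42.9 FPKM in apc8-1, against 82.6 and 80.5 FPKM in Col-0. AAP4 fell by 0.94 in log2 terms (SE 0.06, adjusted p = 2.62e-05).

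**Figure D5:**
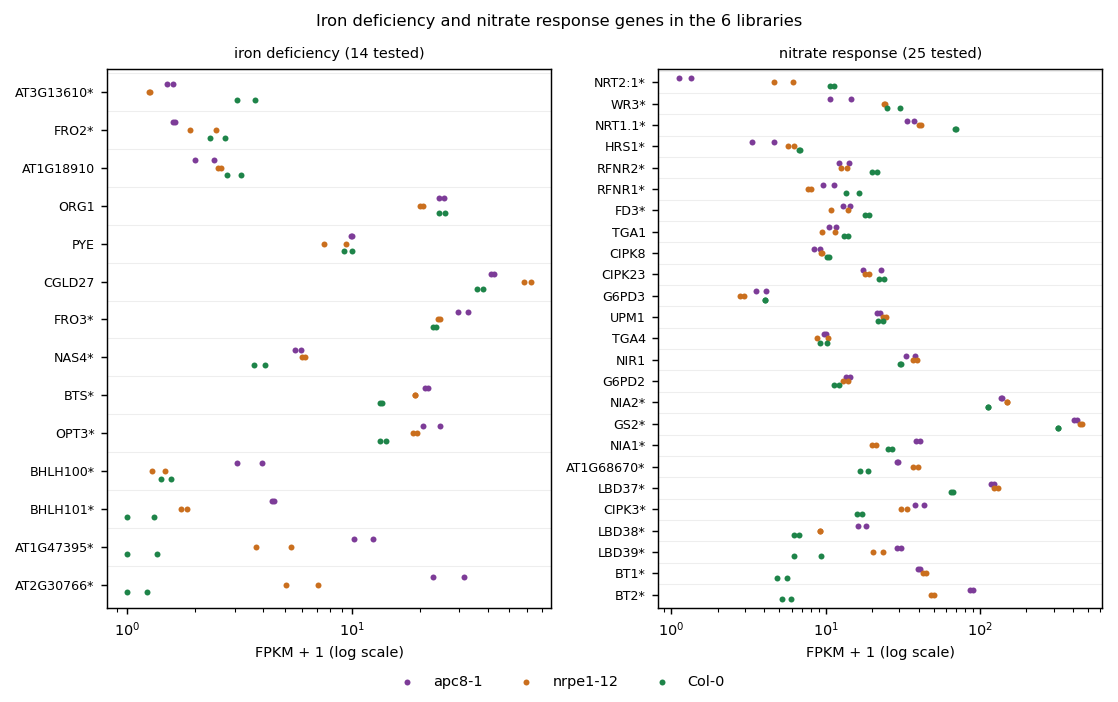
FPKM + 1 on a log axis in each of the 6 libraries for the 14 tested iron deficiency genes and the 25 tested nitrate response genes, ordered by the change in apc8-1 against Col-0, with an asterisk where that change was called. AT2G30766 and AT1G47395 separate the 3 genotypes, with apc8-1 at 21.9 and 30.6 and 11.4 and 9.21 FPKM, while BT1 puts both mutants near each other and above Col-0.

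Genes raised by sugar shortage were mostly higher in apc8-1. Plants in the dark or short of sugar raise asparagine synthesis, branched-chain amino acid breakdown and several trehalose phosphate synthases of the regulatory class. Of 22 tested genes, 15 were higher, 4 were lower and 3 were not called, with a median of 0.57. Against nrpe1-12, 8 were higher and 6 were lower. ASN1, the dark-induced asparagine synthetase, had 196 and 173 FPKM in apc8-1, 141 and 132 FPKM in nrpe1-12 and 58.3 and 59.0 FPKM in Col-0. ASN1 rose by 1.63 log2 units (SE 0.07, adjusted p = 3.44e-06). DIN10, of the raffinose synthase family, had 214 and 207 FPKM in apc8-1, 160.0 and 159 FPKM in nrpe1-12 and 79.1 and 80.6 FPKM in Col-0. DIN10 rose by 1.39 in log2 terms (SE 0.05, adjusted p = 1.78e-06). SEN1, a dark-induced gene, had 828 and 815 FPKM in apc8-1, 512 and 524 FPKM in nrpe1-12 and 456 and 435 FPKM in Col-0. SEN1 rose by 0.88 log2 units (SE 0.06, adjusted p = 2.03e-05). The apc8-1 libraries were the highest of the 6 in all 3 genes, and for ASN1 and DIN10 nrpe1-12 was also well above Col-0. In the breakdown of leucine, MCCA had 52.5 and 56.8 FPKM in apc8-1, 32.9 and 35.9 FPKM in nrpe1-12 and 22.8 and 21.7 FPKM in Col-0. MCCA rose by 1.26 in log2 terms (SE 0.08, adjusted p = 1.56e-05). IVD had 55.2 and 59.0 FPKM in apc8-1, 49.3 and 50.9 FPKM in nrpe1-12 and 36.5 and 32.8 FPKM in Col-0. IVD rose by 0.70 log2 units (SE 0.07, adjusted p = 0.000256). TPS11 had 54.2 and 51.3 FPKM in apc8-1, 58.8 and 56.6 FPKM in nrpe1-12 and 23.1 and 23.9 FPKM in Col-0. TPS11 rose by 1.13 in log2 terms (SE 0.07, adjusted p = 1.22e-05). TPS8 had 122 and 125 FPKM in apc8-1, 148 and 162 FPKM in nrpe1-12 and 73.9 and 72.0 FPKM in Col-0, with both mutants above Col-0. TPS8 rose by 0.75 log2 units (SE 0.06, adjusted p = 8.53e-05). The group was not uniform. DIN2, a beta-glucosidase gene of the same dark-induced set, had 36.4 and 43.1 FPKM in apc8-1, 56.7 and 61.8 FPKM in nrpe1-12 and 179 and 174 FPKM in Col-0. DIN2 fell by 2.13 in log2 terms (SE 0.09, adjusted p = 2.14e-06).

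Touch and early stress genes were also mostly higher, and most were lower in apc8-1 than in nrpe1-12. These genes respond within minutes to handling, wounding or elicitors. Of 24 tested, 13 were higher in apc8-1 than in Col-0, 2 were lower and 9 were not called, with a median of 0.33. Against nrpe1-12, 1 was higher and 16 were lower, with a median of -0.41. TCH4, a xyloglucan-modifying enzyme induced by touch, had 186 and 198 FPKM in apc8-1, 229.5 and 242 FPKM in nrpe1-12 and 25.7 and 24.3 FPKM in Col-0. TCH4 rose by 2.89 log2 units (SE 0.06, adjusted p = 1.43e-07). EXO, a cell expansion gene responsive to brassinosteroid, had 238 and 257 FPKM in apc8-1, 252 and 257 FPKM in nrpe1-12 and 56.2 and 54.9 FPKM in Col-0. EXO rose by 2.14 in log2 terms (SE 0.06, adjusted p = 7.00e-07). PHI-1, of the same family as EXO, had 17.3 and 14.2 FPKM in apc8-1, 17.4 and 17.0 FPKM in nrpe1-12 and 1.85 and 2.39 FPKM in Col-0. PHI-1 rose by 2.43 log2 units (SE 0.13, adjusted p = 7.71e-06). In each of the 3 both mutants were several times above Col-0. The calmodulin-like TCH3 had 272 and 259 FPKM in apc8-1, 377 and 405 FPKM in nrpe1-12 and 158 and 151 FPKM in Col-0. TCH3 rose by 0.78 in log2 terms (SE 0.06, adjusted p = 6.51e-05). The ethylene response factor gene ERF104 had 87.0 and 78.9 FPKM in apc8-1, 158 and 174 FPKM in nrpe1-12 and 46.7 and 52.6 FPKM in Col-0. ERF104 rose by 0.73 log2 units (SE 0.08, adjusted p = 0.000407), and both genes were intermediate in apc8-1 and highest in nrpe1-12. STZ, an early stress regulator, had 30.1 and 29.5 FPKM in apc8-1, 52.5 and 46.2 FPKM in nrpe1-12 and 32.9 and 29.0 FPKM in Col-0 and was not called.

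Few cellulose synthesis genes of the cell wall were called, whereas wall-loosening families changed in both directions. Of 8 tested genes of primary wall cellulose synthesis, 2 were called higher, and at most 1 was when any 1 library was left out. Of 12 secondary wall genes none was called by limma and 3 had an unadjusted p below 0.05. CESA4, a cellulose synthase of the secondary wall, had 3.60 and 4.30 FPKM in apc8-1, against 3.31 and 3.70 FPKM in Col-0. Of 22 tested XTH genes, which encode wall-loosening enzymes that act on xyloglucan, 9 were higher and 7 lower, or 72.7% called against 31.1% of all tested loci. The higher count was 4 without apc8-1 replicate 2, 4 without Col-0 replicate 1 and 5 without Col-0 replicate 2. Among them, XTH9 had 54.6 and 55.2 FPKM in apc8-1, 34.9 and 34.9 FPKM in nrpe1-12 and 25.9 and 26.6 FPKM in Col-0. XTH9 rose by 1.04 in log2 terms (SE 0.06, adjusted p = 1.48e-05). XTH14, which is expressed in roots, had 0.362 and 0.284 FPKM in apc8-1, 0.621 and 0.582 FPKM in nrpe1-12 and 5.81 and 4.04 FPKM in Col-0. XTH14 fell by 2.15 log2 units (SE 0.18, adjusted p = 7.89e-05). XTH14 passed the filter on low values only through Col-0, as did XTH26 and XTH12, which were also called lower. At a filter of 5 FPKM, 9 XTH genes were called higher and 3 lower. Of 18 tested expansins, 4 were higher and 5 were lower (22.2% and 27.8%). At a filter of 5 FPKM, 4 expansins were called higher and 2 lower. EXLA1 had 11.4 and 7.97 FPKM in apc8-1, against 3.91 and 4.58 FPKM in Col-0. EXLA1 rose by 1.01 in log2 terms (SE 0.16, adjusted p = 0.00225). EXLB1 had 6.70 and 5.66 FPKM in apc8-1, against 15.1 and 16.4 FPKM in Col-0. EXLB1 fell by 1.22 log2 units (SE 0.12, adjusted p = 0.000184). Of 33 tested aquaporins, 7 were higher and 7 were lower, or 21.2% each. Among all tested loci, 14.5% were higher and 16.6% lower. PIP1C had 191 and 179 FPKM in apc8-1, 173 and 162 FPKM in nrpe1-12 and 102 and 100.2 FPKM in Col-0. PIP1C rose by 0.87 in log2 terms (SE 0.06, adjusted p = 3.49e-05). NIP5;1, the boric acid channel, had 2.27 and 1.75 FPKM in apc8-1, 2.39 and 2.88 FPKM in nrpe1-12 and 4.76 and 4.41 FPKM in Col-0. NIP5;1 fell by 0.90 log2 units (SE 0.15, adjusted p = 0.00230).

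Leaf senescence genes fell broadly. Senescence begins with NAC and WRKY transcription factors, proceeds through chlorophyll breakdown, and moves nitrogen out of the leaf. Of 21 tested genes, 16 were lower in apc8-1 than in Col-0, 1 was higher and 4 were not called, with a median of -0.72. Against nrpe1-12, 10 were lower and none was higher. NAP, a NAC factor that drives leaf senescence, had 75.1 and 72.7 FPKM in apc8-1, 131 and 141 FPKM in nrpe1-12 and 192 and 197 FPKM in Col-0. NAP fell by 1.38 in log2 terms (SE 0.06, adjusted p = 3.06e-06). WRKY6 had 9.83 and 9.46 FPKM in apc8-1, 14.3 and 13.8 FPKM in nrpe1-12 and 16.7 and 16.3 FPKM in Col-0. WRKY6 fell by 0.72 log2 units (SE 0.08, adjusted p = 0.000379). For chlorophyll breakdown, NYE1, which extracts magnesium from chlorophyll, had 6.14 and 6.23 FPKM in apc8-1, 9.76 and 7.88 FPKM in nrpe1-12 and 18.7 and 17.1 FPKM in Col-0. NYE1 fell by 1.39 in log2 terms (SE 0.11, adjusted p = 6.74e-05). NYC1, chlorophyll b reductase, had 67.8 and 68.6 FPKM in apc8-1, 73.3 and 71.7 FPKM in nrpe1-12 and 125 and 131 FPKM in Col-0. NYC1 fell by 0.90 log2 units (SE 0.06, adjusted p = 1.97e-05). PPH, pheophytinase, had 29.0 and 27.8 FPKM in apc8-1, 32.0 and 36.3 FPKM in nrpe1-12 and 48.5 and 47.8 FPKM in Col-0. PPH fell by 0.74 in log2 terms (SE 0.08, adjusted p = 0.000240). NAP was lower in apc8-1 than in both other genotypes, while the difference between the mutants did not pass the test for NYC1 and PPH (adjusted p = 0.348 and 0.0523). GLN1;4, a cytosolic glutamine synthetase, had 2.46 and 3.29 FPKM in apc8-1, 6.97 and 7.77 FPKM in nrpe1-12 and 17.1 and 17.8 FPKM in Col-0. GLN1;4 fell by 2.26 log2 units (SE 0.13, adjusted p = 1.08e-05). BFN1, a senescence nuclease, had 1.13 and 1.34 FPKM in apc8-1, 2.50 and 2.80 FPKM in nrpe1-12 and 3.19 and 4.65 FPKM in Col-0. BFN1 fell by 1.12 in log2 terms (SE 0.17, adjusted p = 0.00169). SAG13, a stress-related member, had 2.75 and 2.46 FPKM in apc8-1, against 2.66 and 3.18 FPKM in Col-0 and was not called.

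Flavonoid genes were mostly lower. Of 12 tested general phenylpropanoid and flavonol genes, 7 were lower and 1 higher, with a median of -0.39, and 4 were called lower without Col-0 replicate 2. Of 14 late anthocyanin genes, 11 were lower, none was higher and 3 were not called, with a median of -1.25. Against nrpe1-12, 10 were lower with a median of -1.02. At a filter of 5 FPKM in 2 libraries, which leaves out low members, 7 were called lower. PAL1, the first step, had 22.8 and 21.3 FPKM in apc8-1, 30.6 and 29.5 FPKM in nrpe1-12 and 33.8 and 34.7 FPKM in Col-0. PAL1 fell by 0.61 log2 units (SE 0.07, adjusted p = 0.000415). TT4, chalcone synthase, had 3.96 and 4.55 FPKM in apc8-1, 24.5 and 22.3 FPKM in nrpe1-12 and 14.04 and 12.9 FPKM in Col-0. TT4 fell by 1.46 in log2 terms (SE 0.10, adjusted p = 2.98e-05). LDOX, anthocyanidin synthase, had 1.16 and 0.951 FPKM in apc8-1, 7.06 and 8.62 FPKM in nrpe1-12 and 5.13 and 5.07 FPKM in Col-0. LDOX fell by 1.57 log2 units (SE 0.13, adjusted p = 9.04e-05). For TT4 and LDOX, nrpe1-12 was above Col-0 while apc8-1 was below it. Of the regulators, MYB90 had 1.04 and 1.29 FPKM in apc8-1, 7.91 and 6.33 FPKM in nrpe1-12 and 34.5 and 31.8 FPKM in Col-0. MYB90 fell by 3.98 in log2 terms (SE 0.13, adjusted p = 8.38e-07). TT8, its bHLH partner, had 1.01 and 0.837 FPKM in apc8-1, 1.74 and 2.23 FPKM in nrpe1-12 and 3.61 and 2.59 FPKM in Col-0. TT8 fell by 1.08 log2 units (SE 0.17, adjusted p = 0.00214). TTG1, the WD-repeat protein of the same complex, had 20.15 and 19.4 FPKM in apc8-1, against 20.0997 and 18.5 FPKM in Col-0 and was not called. MYBL2, a repressor of the pathway, had 218 and 198 FPKM in apc8-1, against 278 and 268 FPKM in Col-0. MYBL2 fell by 0.40 in log2 terms (SE 0.06, adjusted p = 0.00216).

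Genes of ER bodies, the compartments of roots and seedlings that hold defensive beta-glucosidases, fell in 14 of 18 tested members and none rose, with a median of -0.56. Against nrpe1-12, 12 were lower. PYK10, the main ER body enzyme, had 373 and 415 FPKM in apc8-1, 486 and 529 FPKM in nrpe1-12 and 683 and 659 FPKM in Col-0. PYK10 fell by 0.77 log2 units (SE 0.07, adjusted p = 0.000155). BGLU22 had 0.152 and 0.409 FPKM in apc8-1, 2.39 and 2.40 FPKM in nrpe1-12 and 6.41 and 6.09 FPKM in Col-0. BGLU22 fell by 2.51 in log2 terms (SE 0.15, adjusted p = 1.47e-05). JAL22, a jacalin lectin, had 43.0 and 44.5 FPKM in apc8-1, 89.7 and 90.1 FPKM in nrpe1-12 and 81.0 and 78.9 FPKM in Col-0. JAL22 fell by 0.86 log2 units (SE 0.06, adjusted p = 2.62e-05). NAI2, which builds the compartment, had 59.0 and 57.5 FPKM in apc8-1, 66.8 and 74.4 FPKM in nrpe1-12 and 81.1 and 80.4 FPKM in Col-0. NAI2 fell by 0.46 in log2 terms (SE 0.07, adjusted p = 0.00136). NAI1, the transcription factor above it, had 5.41 and 7.28 FPKM in apc8-1, against 6.89 and 6.88 FPKM in Col-0 and was not called. PYK10, NAI2 and BGLU22 were graded, with nrpe1-12 between apc8-1 and Col-0, and JAL22 was low in apc8-1 alone.

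In glucosinolate synthesis, 6 of 18 tested aliphatic genes were lower and 2 higher (2 lower without Col-0 replicate 1), with a median of -0.16. Of 10 indole genes, 6 were lower and 1 higher, with a median of -0.54. IMS2, a chain-elongation enzyme also named MAM3, had 8.36 and 8.01 FPKM in apc8-1, 14.9 and 17.6 FPKM in nrpe1-12 and 34.3 and 35.5 FPKM in Col-0. IMS2 fell by 1.97 log2 units (SE 0.09, adjusted p = 4.74e-06). Its neighbour MAM1 had 62.9 and 56.0 FPKM in apc8-1, 50.9 and 51.8 FPKM in nrpe1-12 and 45.7 and 42.9 FPKM in Col-0. MAM1 rose by 0.41 in log2 terms (SE 0.07, adjusted p = 0.00366). These genes are related in sequence, so their fragments may be split uncertainly. CYP83B1, of indole glucosinolate synthesis, had 55.5 and 60.7 FPKM in apc8-1, 67.2 and 63.1 FPKM in nrpe1-12 and 97.6 and 87.8 FPKM in Col-0. CYP83B1 fell by 0.66 log2 units (SE 0.08, adjusted p = 0.000441). GTR2, a glucosinolate transporter, had 30.4 and 32.0 FPKM in apc8-1, 33.6 and 35.2 FPKM in nrpe1-12 and 56.6 and 54.1 FPKM in Col-0. GTR2 fell by 0.81 in log2 terms (SE 0.07, adjusted p = 7.53e-05). Of the enzymes that act on glucosinolates, TGG1, the leaf myrosinase, had 469 and 458 FPKM in apc8-1, against 354 and 356 FPKM in Col-0. TGG1 rose by 0.38 log2 units (SE 0.05, adjusted p = 0.00105). NSP5, a nitrile-specifier protein, had 50.8 and 49.3 FPKM in apc8-1, against 100.2 and 106 FPKM in Col-0. NSP5 fell by 1.03 in log2 terms (SE 0.12, adjusted p = 0.000362).

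Hormone genes were mixed, beside 14.5% higher and 16.6% lower among all tested loci. In ethylene, 7 of 19 tested were lower and 2 higher, and 4 were lower without Col-0 replicate 1 and 4 without Col-0 replicate 2. ACS7, an enzyme of the committed step of ethylene synthesis, had 0.736 and 0.8998 FPKM in apc8-1, 4.12 and 4.37 FPKM in nrpe1-12 and 4.07 and 4.81 FPKM in Col-0. ACS7 fell by 1.58 log2 units (SE 0.14, adjusted p = 9.55e-05). ACS6 of the same family had 17.3 and 19.7 FPKM in apc8-1, 43.9 and 47.5 FPKM in nrpe1-12 and 10.98 and 11.2 FPKM in Col-0. ACS6 rose by 0.68 in log2 terms (SE 0.09, adjusted p = 0.000676). ACS7 was low in apc8-1 only, and ACS6 was highest in nrpe1-12. HCHIB, a basic chitinase induced by ethylene, had 3.19 and 3.47 FPKM in apc8-1, 10.2 and 6.77 FPKM in nrpe1-12 and 13.6 and 13.4 FPKM in Col-0. HCHIB fell by 1.74 log2 units (SE 0.16, adjusted p = 0.000139).

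In gibberellin, 5 of 15 were lower and 1 higher (33.3% and 6.67%, beside 16.6% and 14.5% of all tested loci). The receptor GID1B had 6.91 and 7.38 FPKM in apc8-1, 9.14 and 8.43 FPKM in nrpe1-12 and 16.2 and 15.3 FPKM in Col-0. GID1B fell by 1.04 in log2 terms (SE 0.09, adjusted p = 0.000113). The catabolic GA2OX2 had 1.297 and 1.84 FPKM in apc8-1, 1.82 and 2.15 FPKM in nrpe1-12 and 5.50 and 4.24 FPKM in Col-0. GA2OX2 fell by 1.19 log2 units (SE 0.17, adjusted p = 0.00119). GASA6, a gibberellin-responsive gene, had 241 and 215 FPKM in apc8-1, 160.0 and 162 FPKM in nrpe1-12 and 129.96 and 139 FPKM in Col-0. GASA6 rose by 0.76 in log2 terms (SE 0.07, adjusted p = 0.000139). In brassinosteroid, 5 of 16 were higher and 2 lower, and 3 were higher without apc8-1 replicate 1, without Col-0 replicate 1 or without Col-0 replicate 2. IBH1, a growth repressor, had 41.1 and 42.7 FPKM in apc8-1, 54.8 and 60.8 FPKM in nrpe1-12 and 82.3 and 77.9 FPKM in Col-0. IBH1 fell by 0.92 log2 units (SE 0.07, adjusted p = 5.38e-05). CPD, a biosynthetic enzyme, had 40.7 and 38.3 FPKM in apc8-1, 36.1 and 34.9 FPKM in nrpe1-12 and 27.0 and 25.6 FPKM in Col-0. CPD rose by 0.57 in log2 terms (SE 0.07, adjusted p = 0.000539). In cytokinin, 3 of 13 were higher and 2 lower (23.1% and 15.4%, beside 14.5% and 16.6% of all tested loci). The response regulator ARR7 had 5.37 and 4.45 FPKM in apc8-1, 3.28 and 1.86 FPKM in nrpe1-12 and 0.810 and 0.482 FPKM in Col-0. ARR7 rose by 1.85 log2 units (SE 0.21, adjusted p = 0.000427). ARR9 had 30.7 and 37.0 FPKM in apc8-1, 37.4 and 42.1 FPKM in nrpe1-12 and 17.0 and 20.4 FPKM in Col-0, with both mutants above Col-0. ARR9 rose by 0.82 in log2 terms (SE 0.12, adjusted p = 0.00116). Of 13 tested Aux/IAA repressors, 6 were higher and 1 was lower, with a median of -0.01. IAA29 had 18.4 and 18.7 FPKM in apc8-1, 8.74 and 12.04 FPKM in nrpe1-12 and 8.56 and 9.88 FPKM in Col-0. IAA29 rose by 0.94 log2 units (SE 0.14, adjusted p = 0.00149). IAA28 had 20.8 and 23.5 FPKM in apc8-1, 14.4 and 15.3 FPKM in nrpe1-12 and 47.1 and 47.5 FPKM in Col-0. IAA28 fell by 1.06 in log2 terms (SE 0.08, adjusted p = 4.65e-05).

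Genes of growth and organ identity were called in both directions, beside 31.1% called among all tested loci. In the stomatal lineage, 3 of 16 tested genes were higher and 1 lower (25% called). STOMAGEN, a peptide made in the mesophyll that promotes stomata, had 24.7 and 27.7 FPKM in apc8-1, 17.1 and 23.4 FPKM in nrpe1-12 and 12.9 and 16.03 FPKM in Col-0. STOMAGEN rose by 0.82 log2 units (SE 0.15, adjusted p = 0.00431). SPCH, which starts the lineage, had 12.5 and 14.8 FPKM in apc8-1, against 14.5 and 11.4 FPKM in Col-0 and was not called. In meristem and leaf growth, 4 of 17 were called higher and none lower (23.5% called), but none was called without Col-0 replicate 1, 1 was without apc8-1 replicate 1, 2 were without apc8-1 replicate 2 and 2 without Col-0 replicate 2. STM, the meristem gene, was at 2.59 and 2.59 FPKM in apc8-1, against 2.99 and 2.63 FPKM in Col-0, and was not called. In the cuticle list 3 of 20 were higher and 1 lower, and 1 was higher without apc8-1 replicate 2 and 1 without Col-0 replicate 1. CER3, of alkane synthesis, had 21.6 and 19.1 FPKM in apc8-1, against 13.1 and 13.7 FPKM in Col-0. CER3 rose by 0.56 in log2 terms (SE 0.08, adjusted p = 0.00157). KCS6, of wax elongation, had 137 and 136 FPKM in apc8-1, against 175 and 175 FPKM in Col-0. KCS6 fell by 0.35 log2 units (SE 0.05, adjusted p = 0.00141). The trichome list had 1 higher and 1 lower of 8, and the phloem and xylem list 1 higher and 2 lower of 7. The higher trichome call was lost without Col-0 replicate 1 and the lower one without Col-0 replicate 2. Of the phloem and xylem calls, only 1 lower call was made without apc8-1 replicate 2, and none was made without any 1 of the other 3 libraries. Among guard cell genes, 4 of 7 were lower and 1 higher, which is 71.4% called (2 lower without Col-0 replicate 2), with KAT2, a potassium channel, at 7.95 and 8.17 FPKM in apc8-1, against 11.6 and 11.4 FPKM in Col-0. KAT2 fell by 0.46 in log2 terms (SE 0.09, adjusted p = 0.00549). The summed level of the 7 guard cell genes was higher in apc8-1, at 300.5 and 330.1 FPKM, against 283.1 and 281.1 FPKM in Col-0. Among hypoxia genes, 3 of 9 were lower and 1 higher, and PDC2, pyruvate decarboxylase, had 21.6 and 18.9 FPKM in apc8-1, 12.7 and 13.7 FPKM in nrpe1-12 and 34.5 and 33.4 FPKM in Col-0. PDC2 fell by 0.72 log2 units (SE 0.09, adjusted p = 0.000532). Among genes of the unfolded protein response, 5 of 14 were lower and none higher, and BIP1, a chaperone, had 66.3 and 69.0 FPKM in apc8-1, against 86.0 and 90.2 FPKM in Col-0. BIP1 fell by 0.38 in log2 terms (SE 0.06, adjusted p = 0.00215). The count of lower genes was 3 without Col-0 replicate 1, 2 without Col-0 replicate 2 and 8 with organelle and ribosomal RNA loci left out.

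Photosynthesis genes of both genomes were higher in the mutants. All 10 shoot markers, mostly of the light reactions and the Calvin cycle, were higher in apc8-1 than in Col-0, with a median of 0.44, and 10 of 13 tested light-harvesting complex genes were higher with none lower. With quantile normalization, 6 shoot markers (median 0.22) and 4 light-harvesting genes (median 0.05) were called higher. Without Col-0 replicate 2, 6 shoot markers were called higher. LHCB3 had 1223 and 1269.7 FPKM in apc8-1, 1248 and 1196 FPKM in nrpe1-12 and 835 and 868 FPKM in Col-0. LHCB3 rose by 0.55 log2 units (SE 0.06, adjusted p = 0.000338). LHCB6 had 585 and 573 FPKM in apc8-1, 594 and 537 FPKM in nrpe1-12 and 411 and 420.3 FPKM in Col-0. LHCB6 rose by 0.48 in log2 terms (SE 0.06, adjusted p = 0.000924). GAPB, a Calvin cycle enzyme, had 680.3 and 671 FPKM in apc8-1, 769 and 819.8 FPKM in nrpe1-12 and 509.7 and 493 FPKM in Col-0. GAPB rose by 0.43 log2 units (SE 0.06, adjusted p = 0.00101). The mutants lay together above Col-0, and against nrpe1-12 none of the 10 shoot markers was higher and 4 were lower. Of 55 tested loci of the chloroplast genome, 45 were higher and 1, a copy of the small ribosomal RNA, was lower, with a median of 0.52. Of 53 loci of the mitochondrial genome, 6 were higher and 2 lower (11.3% and 3.77%, beside 14.5% and 16.6% of all tested loci). NDHF, a subunit of the plastid NADH dehydrogenase-like complex, had 345 and 343 FPKM in apc8-1, 346 and 338 FPKM in nrpe1-12 and 209 and 227 FPKM in Col-0. NDHF rose by 0.66 in log2 terms (SE 0.06, adjusted p = 0.000124). RPOC2, a subunit of the plastid-encoded RNA polymerase, had 202 and 234 FPKM in apc8-1, 179 and 191 FPKM in nrpe1-12 and 115 and 121 FPKM in Col-0. RPOC2 rose by 0.88 log2 units (SE 0.08, adjusted p = 0.000121). Size factors from the median ratio of loci were 1.00054 to 1.01027 over the 6 libraries. The deposited values were thus already alike at the median locus, although the chloroplast share differed. How far that share enters the other FPKM was not tested. Of 23 light and shade genes, 7 were higher and 2 lower (3 higher without Col-0 replicate 1 and 4 without Col-0 replicate 2). PIF4, a growth-promoting bHLH factor, had 58.1 and 55.6 FPKM in apc8-1, 37.7 and 37.9 FPKM in nrpe1-12 and 24.2 and 28.4 FPKM in Col-0. PIF4 rose by 1.09 in log2 terms (SE 0.08, adjusted p = 5.35e-05). PIL5, also named PIF1, had 24.5 and 23.6 FPKM in apc8-1, 23.8 and 21.3 FPKM in nrpe1-12 and 14.3 and 14.8 FPKM in Col-0. PIL5 rose by 0.69 log2 units (SE 0.08, adjusted p = 0.000469). HY5, a light regulator, had 7.48 and 10.9 FPKM in apc8-1, against 11.6 and 12.8 FPKM in Col-0 and was not called.

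Root markers were low and summed to less in both mutants. Of 14 root tip and root hair genes only 5 passed the filter, of which 2 were lower and 1 was higher. The higher one, SCR, a root patterning gene, lost its call without any 1 of the 4 libraries (adjusted p 0.0586 to 0.0908). At a filter of 5 FPKM, 1 root tip and root hair gene was called higher and none lower. The summed level of all 14 was 19.2 and 18.0 FPKM in apc8-1, 17.6 and 19.7 FPKM in nrpe1-12 and 27.0 and 25.8 FPKM in Col-0. Of 8 tested endodermis and suberin genes, 6 were lower and 1 higher, with a median of -0.98, and only 1 of the 6 was called at a filter of 5 FPKM. Their summed level was 25.1 and 27.1 FPKM in apc8-1, 20.9 and 20.7 FPKM in nrpe1-12 and 32.7 and 38.0 FPKM in Col-0. PRP3, a root hair wall protein, had 0.528 and 0.194 FPKM in apc8-1, 0.755 and 0.454 FPKM in nrpe1-12 and 4.47 and 4.27 FPKM in Col-0. PRP3 fell by 1.99 in log2 terms (SE 0.18, adjusted p = 0.000124), and it passed the filter on low values only through Col-0. CYP86A1, a suberin enzyme, had 1.01 and 0.945 FPKM in apc8-1, 2.65 and 2.44 FPKM in nrpe1-12 and 3.06 and 3.13 FPKM in Col-0. CYP86A1 fell by 1.05 log2 units (SE 0.13, adjusted p = 0.000659). SHR, a root patterning factor, had 9.20 and 8.67 FPKM in apc8-1, 8.83 and 10.3 FPKM in nrpe1-12 and 9.91 and 9.02 FPKM in Col-0 and was not called. The summed level of the 10 shoot markers was 42504 and 40043 FPKM in apc8-1, 45647 and 42998 FPKM in nrpe1-12 and 30526 and 30070 FPKM in Col-0. Root marker sums were thus lower and shoot marker sums higher in both mutants than in Col-0. In the same apc8-1 libraries, transporters and ER body genes known from roots, such as PHT1;1, SULTR1;2, NRT2:1 and PYK10, were lower. The part of root and shoot proportions in those results was not tested.

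Large families of transcription factors leaned to the lower side. Of 47 tested WRKY factors, regulators of defence and senescence, 25 were lower and 3 higher, with a median of -0.28; leaving out 1 library in turn gave 18 to 21 lower and 1 or 2 higher. Of 39 NAC factors, 20 were lower and 1 higher, with a median of -0.41. Of 53 MYB factors, 22 were lower and 9 higher, with a median of -0.22. The lower shares of the WRKY, NAC and MYB factors were 53.2%, 51.3% and 41.5%, beside 16.6% of all tested loci. At a filter of 5 FPKM, which leaves out low genes, 18 WRKY, 14 NAC and 12 MYB factors were called lower. At that filter 4 WRKY, 1 NAC and 7 MYB factors were called higher. WRKY75, an activator of phosphate and senescence genes, had 3.29 and 2.67 FPKM in apc8-1, 8.74 and 9.62 FPKM in nrpe1-12 and 22.9 and 18.1 FPKM in Col-0. WRKY75 fell by 2.43 in log2 terms (SE 0.14, adjusted p = 1.06e-05). WRKY61 had 0.490 and 0.736 FPKM in apc8-1, 3.73 and 3.58 FPKM in nrpe1-12 and 6.07 and 6.24 FPKM in Col-0. WRKY61 fell by 2.15 log2 units (SE 0.13, adjusted p = 1.84e-05). Among those that were higher, WRKY22 had 17.9 and 17.0 FPKM in apc8-1, 20.24 and 19.9 FPKM in nrpe1-12 and 10.5 and 11.4 FPKM in Col-0. WRKY22 rose by 0.63 in log2 terms (SE 0.08, adjusted p = 0.000727). NAC047 had 19.7 and 19.9 FPKM in apc8-1, 24.1 and 25.3 FPKM in nrpe1-12 and 52.1 and 50.9 FPKM in Col-0. NAC047 fell by 1.34 log2 units (SE 0.07, adjusted p = 5.74e-06). NAC044, a cell cycle and DNA damage factor, had 2.72 and 2.38 FPKM in apc8-1, 1.58 and 1.02 FPKM in nrpe1-12 and 0.643 and 0.594 FPKM in Col-0. NAC044 rose by 1.13 in log2 terms (SE 0.17, adjusted p = 0.00157). Both WRKY75 and WRKY61 were lowest in apc8-1 with nrpe1-12 in between, and NAC044 was highest in apc8-1. MYB73 had 131 and 143 FPKM in apc8-1, 150.0 and 172 FPKM in nrpe1-12 and 59.4 and 59.8 FPKM in Col-0, with both mutants above Col-0. MYB73 rose by 1.19 log2 units (SE 0.08, adjusted p = 2.45e-05). MYB2 had 6.65 and 3.36 FPKM in apc8-1, 8.16 and 8.81 FPKM in nrpe1-12 and 23.7 and 21.9 FPKM in Col-0, with both mutants below Col-0. MYB2 fell by 2.04 in log2 terms (SE 0.22, adjusted p = 0.000302).

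Of 21 tested tau-class glutathione transferases, detoxifying enzymes that respond to stress, 16 were lower and 2 higher, with a median of -0.87. At a filter of 5 FPKM, 11 were called lower and 2 higher. GSTU4 had 5.05 and 5.70 FPKM in apc8-1, 11.9 and 15.7 FPKM in nrpe1-12 and 29.3 and 26.5 FPKM in Col-0. GSTU4 fell by 2.18 log2 units (SE 0.13, adjusted p = 1.58e-05). GSTU7 had 10.01 and 11.4 FPKM in apc8-1, 20.8 and 25.9 FPKM in nrpe1-12 and 32.0 and 33.9 FPKM in Col-0. GSTU7 fell by 1.53 in log2 terms (SE 0.11, adjusted p = 4.04e-05). GSTU5 had 77.2 and 85.0 FPKM in apc8-1, 121 and 119 FPKM in nrpe1-12 and 61.3 and 59.2 FPKM in Col-0. GSTU5 rose by 0.42 log2 units (SE 0.07, adjusted p = 0.00187). Of 14 heat shock protein genes, 6 were lower (42.9%, beside 16.6% of all tested loci) and none higher. HSP90.1 had 5.32 and 5.70 FPKM in apc8-1, 20.6 and 21.95 FPKM in nrpe1-12 and 15.8 and 14.4 FPKM in Col-0. HSP90.1 fell by 1.3 in log2 terms (SE 0.09, adjusted p = 3.21e-05).

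Noncoding and repetitive loci held a small share of the changes. Of 82 tested transposable element genes, 13 were higher and 1 was lower in apc8-1, or 15.9% higher and 1.22% lower against 14.5% and 16.6% of all tested loci. The lower one, AT2G04460 (chromosome 2, 1547538 to 1548999), had 0.633 and 1.02 FPKM in apc8-1, 38.6 and 35.0 FPKM in nrpe1-12 and 15.5 and 17.0 FPKM in Col-0, so it was low in apc8-1 alone and highest in nrpe1-12. AT2G04460 fell by 3.25 log2 units (SE 0.12, adjusted p = 1.78e-06), the largest change of the class. AT1G20390 had 11.2 and 10.1 FPKM in apc8-1, 4.85 and 4.49 FPKM in nrpe1-12 and 4.83 and 5.41 FPKM in Col-0. AT1G20390 rose by 0.93 in log2 terms (SE 0.11, adjusted p = 0.000498). AT3G42806 had 11.3 and 17.0 FPKM in apc8-1, 3.14 and 3.89 FPKM in nrpe1-12 and 7.34 and 6.12 FPKM in Col-0. AT3G42806 rose by 0.95 log2 units (SE 0.19, adjusted p = 0.00574). AT5G35777 had 3.28 and 3.42 FPKM in apc8-1, 2.998 and 2.56 FPKM in nrpe1-12 and 1.16 and 1.18 FPKM in Col-0. AT5G35777 rose by 1.0 in log2 terms (SE 0.13, adjusted p = 0.000900). The first of these 3 was higher in apc8-1 than in both other genotypes, the second had nrpe1-12 below Col-0, and the last was high in both mutants. SADHU3-2, a retroelement, had 1.21 and 1.103 FPKM in apc8-1, 0 and 0.107 FPKM in nrpe1-12 and 0 and 0.209 FPKM in Col-0, above 1 FPKM in apc8-1 alone. SADHU3-2 rose by 0.97 log2 units (SE 0.18, adjusted p = 0.00478). Of 163 tested genes annotated as other RNA, 27 were higher and 19 lower (16.6% and 11.7%). AT3G12502 had 2.24 and 3.57 FPKM in apc8-1, 9.14 and 7.76 FPKM in nrpe1-12 and 16.1 and 13.6 FPKM in Col-0. AT3G12502 fell by 2.04 in log2 terms (SE 0.17, adjusted p = 8.55e-05). AT4G12917 had 5.17 and 6.52 FPKM in apc8-1, 6.65 and 5.01 FPKM in nrpe1-12 and 2.15 and 2.25 FPKM in Col-0. AT4G12917 rose by 1.09 log2 units (SE 0.16, adjusted p = 0.00125). AT3G12502 overlaps the chitinase gene HCHIB, which fell as well, and their fragments cannot be told apart without a stated strand. Of 81 tested unannotated intergenic loci, 12 were higher and 15 lower (14.8% and 18.5%), and of 52 loci antisense to a gene, 7 were higher and 7 lower (13.5% each). The higher shares of these 3 classes lay near that of all tested loci. The locus antisense to SLAH3, which encodes an anion channel, had 4.06 and 3.29 FPKM in apc8-1, 3.61 and 4.32 FPKM in nrpe1-12 and 0.860 and 1.21 FPKM in Col-0. The locus antisense to SLAH3 rose by 1.2 in log2 terms (SE 0.16, adjusted p = 0.000847). The locus antisense to AT1G67900 had 4.25 and 3.92 FPKM in apc8-1, 4.43 and 5.26 FPKM in nrpe1-12 and 1.49 and 1.31 FPKM in Col-0. The locus antisense to AT1G67900 rose by 1.08 log2 units (SE 0.13, adjusted p = 0.000593). In both, the mutants lay together above Col-0.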

How the data were processed

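RNA of 14-day-old seedlings was measured in 2 libraries each of apc8-1, nrpe1-12 and Col-0, which GEO's labels call lncRNA-seq. Per the submitters' processing notes, TopHat2 2.0.13, Cufflinks 2.2.1 and Cuffnorm 2.2.1 and the TAIR10 build were used, and the authors deposited FPKM per locus. Strand handling is not stated, raw counts were not used here, and coordinates of assembled exons came from a second deposited table. The 2 nrpe1-12 columns share a name, so which replicate each holds is unknown.

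Of 32003 loci that hold a single gene, 31331 (97.9%) matched RefSeq's TAIR10.1 gene table, and 403 merged loci hold several genes. Loci reaching 1 FPKM in 2 or more of the 4 apc8-1 and Col-0 libraries were tested with limma 3.58.1 (R 4.3.3) on log2(FPKM + 1). All 6 libraries entered the fit with an intensity trend and without a replicate term, and p-values were adjusted by the Benjamini-Hochberg method over all tested loci. A locus was called, and "rose" or "fell" is written of it, at an adjusted p below 0.05. Every adjusted p in the text comes from limma. In simulated data for this comparison (17484 loci), 43 of 67 changes of 0.5 log2 units, 66 of 67 of 1 and 66 of 66 of 2 were recovered. Of the 189 calls made there, 14 were false. The simulation changed far fewer loci than the 5441 called in the data. The changed loci were drawn only from those with a Col-0 mean of log2(FPKM + 1) above 2, so recovery among loci of low level was not tested. False calls were not split by expression level. Alternatives were other pseudocounts, filters, scalings and fits, a replicate block and leaving out each library. Tables were handled with Python 3.11.15, pandas 2.3.3 and numpy 2.4.6, and figures drawn with matplotlib 3.10.9.

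The members and the gene lists were chosen with earlier results of these data known. Loci were named by rule: the 20 largest increases and 20 largest decreases among called loci whose higher genotype averaged 5 FPKM or more without overlap, and the 8 largest of each among nuclear loci averaging 200 FPKM or more. The rule added up to 3 higher and 3 lower members of each list with its reference genes, the loci within 100 kb of APC8, and the BT family; a selection of these is given in the text. Other members of lists and families are named as examples, after their values were seen. The planned description of promoter motifs was not run, because no promoter sequence was used here.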

Additional observations from a re-analysis of the deposited data

How the results depend on the processing

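Over 14 alternative settings, none of 227 named loci reversed its direction while called; of 199 called loci, 150 kept their call in every setting and 49 lost it in at least 1. Of 3178 recomputed values, 231 lost and 7 gained a call, and 45 could not be tested. Without Col-0 replicate 1, 3509 loci were called, 1520 of them higher, and without Col-0 replicate 2, 3572 were called, 1617 of them higher, against 5441 and 2540 with all libraries. Leaving out each of the 4 libraries in turn gave 3509 to 4365 called loci, 1520 to 1908 higher and 1955 to 2457 lower. In these fits the lone library of a genotype is assumed to vary like the others, and fewer samples lower the number of calls. The higher loci made up 52.0% of the calls after quantile normalization and 51.6% at a filter of 5 FPKM, against 46.7% in the values as deposited. The other settings moved the 3 counts by less than 1.5 times, and no scaling moved the median of all tested loci by more than 0.1 log2 units. Scaling to the median ratio of loci could change little, because the deposited values were already alike by that measure.

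With the replicate number as a block, 4928 loci were called, 2238 higher and 2690 lower. Samples with the same replicate number did not deviate together (correlation of deviations -0.07), so the numbers name the samples only.

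Precision is limited by 2 libraries per genotype, by FPKM without counts and by unstated strand handling. Loci of low level rest on few fragments. The promoter motif alternative was not run.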

Other observations

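Markers of seeds and embryos were near 0 in all libraries but summed to 2.67 and 3.21 FPKM in apc8-1, 0.764 and 0.585 FPKM in nrpe1-12 and 0.523 and 0.209 FPKM in Col-0. The cruciferin gene CRU3 had 0.958 and 1.27 FPKM in apc8-1, 0.0382 and 0.0457 FPKM in nrpe1-12 and 0.0777 and 0 FPKM in Col-0, and its relative CRA1 had 0.656 and 0.983 FPKM in apc8-1, 0.126 and 0.152 FPKM in nrpe1-12 and 0.0368 and 0.0982 FPKM in Col-0. None of the 10 seed genes passed the filter on low values, so none was tested. Of 17 tested CIPK kinases, which act with calcium sensors, 3 were higher and 5 lower in apc8-1. These shares were 17.6% and 29.4%, beside 14.5% higher and 16.6% lower among all tested loci.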
